A study of Mus musculus with 6 samples.

Results

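The 38 genes described here run the early secretory pathway, the vesicle traffic between the endoplasmic reticulum (ER) and the Golgi. They were chosen by name as subunits of the COPII and COPI coats, receptors that load or retrieve cargo, and the tethers and SNAREs that let vesicles fuse. All 38 were among the 23337 genes of the count table and among the 14587 genes that passed the filter on low counts. Levels are given in every library as CPM, the counts scaled to the size of the library after TMM adjustment, and RPKM, CPM per kilobase of gene length, is used wherever different genes are compared.

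COPII vesicles carry newly made proteins out of the ER. The GTPase SAR1 recruits an inner layer of SEC23 and SEC24, in which SEC24 selects cargo, and an outer layer of SEC13 and SEC31. COPI vesicles, built on ARF GTPases, carry escaped ER proteins and empty receptors back, and KDEL receptors catch ER chaperones in the Golgi for that return trip. Secretory cells enlarge this machinery through the unfolded protein response, whose transcription factors XBP1s and ATF6 are both known activators of genes of the secretory pathway. Heart muscle cells secrete peptide hormones but are not built as secretory cells.

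The libraries hold polyadenylated RNA of cardiomyocytes from wild-type mice that received adeno-associated virus (AAV) by injection on postnatal day 1 and were used at 4 weeks of age. The virus carried GFP (AAV-GFP, the control), XBP1S (AAV-XBP1S, the spliced active form of XBP1) or ATF6N (AAV-ATF6N, the amino-terminal fragment of ATF6), with 2 libraries in each group. Cells were freed by Langendorff perfusion and sorted. The sources used here do not give the promoter that drives the virus, the sorting gate, the sex of the animals or the number of animals behind a library, so p-values measure only the spread between these libraries, which may be technical.

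The libraries held 67702482 to 112049342 counts, and the 38 genes took 277065 to 364207 of them. Xbp1 stood at 98.0 and 115 CPM in AAV-GFP, 160.4 and 166 CPM in AAV-XBP1S and 145 and 152 CPM in AAV-ATF6N. Atf6 stood at 44.9 and 70.6 CPM, 77.0 and 111 CPM, and 162 and 158 CPM in the same order. The 10 cardiomyocyte markers summed to 130925 and 125877, 103329 and 107727, and 148048 and 145980 CPM in AAV-GFP, AAV-XBP1S and AAV-ATF6N, without overlap between groups. Myh6, the largest part of the AAV-ATF6N sums, stood at 22991 and 41121, 26506 and 44246, and 66565 and 65071 CPM in that order. Against AAV-GFP, 8 of the 10 had a negative log2 fold change in AAV-XBP1S and 6 in AAV-ATF6N. On the main axis of a principal component analysis, which held 43.9% of the variance, AAV-GFP replicate 1 lay far from the rest, and it carried the most Rn45s, the ribosomal RNA precursor (0.337% of counts against 0.0319% to 0.130%). The AAV-ATF6N pair was far closer than the others, with a chi-square per gene of 11.4 for its counts against 705 and 267 in AAV-GFP and AAV-XBP1S, and still differed beyond counting noise. The groups also differed in genes of the sex chromosomes. The 4 Y-linked genes Eif2s3y, Ddx3y, Kdm5d and Uty summed to 31.6 and 43.0 CPM in AAV-GFP, to 2 and 0 counts in AAV-XBP1S and to 186 and 175 CPM in AAV-ATF6N, while Xist stood at 24.6 and 7.88, 43.1 and 20.2, and 0.197 and 0.0919 CPM. In each comparison below, the sex of the cells and the delivered factor therefore cannot be told apart.

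In AAV-XBP1S, Arfgap3 rose 3.50-fold and Kdelr3 stood 3.43-fold higher than in AAV-GFP. Differences in the coat subunits were smaller and did not pass the test. By edgeR's quasi-likelihood test, adjusted over all genes, 1 of the 38 rose and 0 fell in AAV-XBP1S, where 0.178% of all genes rose and 0.137% fell. At an unadjusted p under 0.05 there were 4 higher and 1 lower, against 6.37% and 5.21% of all genes. DESeq2 called 2 higher and 0 lower (2.1% and 1.47% of all genes). The authors' deposited table also has 2 higher, Arfgap3 and Kdelr3, and 0 lower (0.809% and 0.502% of its genes). The median log2 fold change of the 38 was 0.25, and 32 lay above 0, against a median of -0.01 and 48.8% of all genes above 0. The spread of this median between libraries was 0.29, larger than the median itself, and the 38 genes share the same libraries. Both AAV-XBP1S libraries lay above both AAV-GFP libraries in 12 of the 38 and below them in 1, against 19.1% and 16.8% of all genes. The median was 0.12 without AAV-GFP replicate 1, with 29 of 38 above 0, and 0.18 without AAV-XBP1S replicate 2, with 25 above 0. With an offset for gene length it was 0.13, with 26 above 0, in a fit where the median of all genes was -0.13.

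In AAV-ATF6N most of the larger values sat in the COPII coat, with Sec24a at 2.25 times its AAV-GFP mean, and no member passed. The COPI gene Copa (log2 fold change 0.78) was among the larger values, while the COPII genes Sec13 (-0.12) and Sar1b (-0.19) lay below 0. The edgeR test called 0 of 38 in either direction, where 0.35% of all genes rose and 0.165% fell. At an unadjusted p under 0.05 there were 4 higher (Sec16a, Sec24a, Sec24d and Sec31a) and 0 lower, against 6.92% and 6.54% of all genes, and DESeq2 called Sec24a alone (2.47% of genes higher and 1.69% lower). The authors' deposited table also has only Sec24a (1.77% of its genes higher and 0.937% lower). The median log2 fold change was 0.27 with 26 of 38 above 0, against -0.02 and 48.7% over all genes. Its spread between libraries was 0.24, close to the median itself. Both AAV-ATF6N libraries lay above both AAV-GFP libraries in 19 members and below them in 7, against 27.9% and 26.7% of all genes. The median was 0.13 without AAV-GFP replicate 1, with 27 of 38 above 0, and 0.43 without AAV-GFP replicate 2, with 24 above 0. With the gene-length offset it was 0.16, with 29 above 0, in a fit where the median of all genes was -0.08. Both comparisons use the same AAV-GFP libraries.

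Compared directly, AAV-ATF6N against AAV-XBP1S had a median of -0.06 over the 38 (-0.01 over all genes), with 17 above 0 (49.5% of all genes). The edgeR test called 0, where 0.171% of all genes were higher and 0.0548% lower. There were 1 higher and 3 lower at an unadjusted p under 0.05, against 5.69% and 7.55% of all genes. These 4 were Sec24a on the higher side and Arfgap3, Tmed3 and Kdelr3 on the lower side, and DESeq2 called all 4 (2.2% of all genes higher, 3.55% lower). Both AAV-ATF6N libraries lay above both AAV-XBP1S libraries in 12 members and below them in 13, against 30.1% and 26.8% of all genes.

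**Figure D1:**
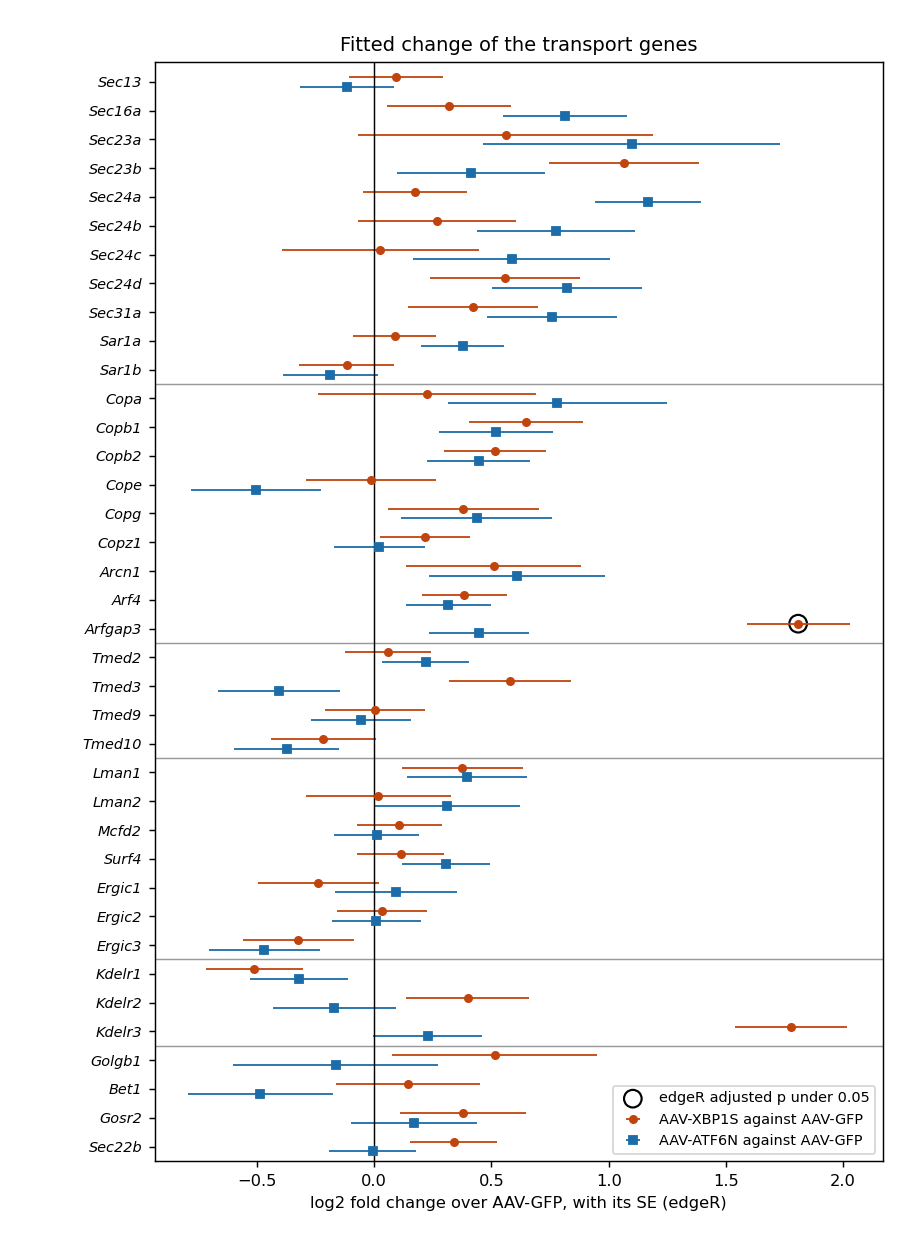
Fitted log2 fold changes over AAV-GFP (x axis) of the 38 genes (y axis, ordered by role, with grey lines between roles), with bars of 1 SE from edgeR and a circle where the adjusted p was under 0.05. Arfgap3 (1.81) and Kdelr3 (1.78) stand away from the other AAV-XBP1S points, and the AAV-ATF6N points of most SEC24 and SEC23 genes, Sec16a and Sec31a lie right of the AAV-XBP1S points, except for Sec23b.

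Of the 11 COPII genes, 10 lay above 0 in AAV-XBP1S (median log2 fold change 0.27) and 9 in AAV-ATF6N (median 0.76), and 0 passed the edgeR test in either. Sec24a encodes 1 of the 4 cargo-selecting SEC24 paralogs and lies on mm10 chromosome 11, from 51692263 to 51756834. It stood at 5.07 and 4.94 CPM in AAV-GFP, 5.72 and 5.57 CPM in AAV-XBP1S and 11.9 and 10.5 CPM in AAV-ATF6N. Both AAV-ATF6N libraries were about level with each other and well above the other 4, which hardly differed. Against AAV-GFP this is 1.17 on the log2 scale (SE 0.22, edgeR adjusted p = 0.117) and against AAV-XBP1S 0.99 (SE 0.22, edgeR adjusted p = 0.125). The authors' deposited table lists Sec24a at 1.17 on the same scale (adjusted p = 0.0402). Over 12 alternative settings the adjusted p against AAV-GFP ran from 0.00125 with DESeq2 to 0.879, and it was under 0.05 in 2 of them, DESeq2 and the fit without AAV-GFP replicate 2 (0.0337). With the gene-length offset the log2 fold change was 0.76.

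Sec24a was also the scarcest of the 38 per length, at 0.736 RPKM in AAV-GFP. The other SEC24 genes were more abundant, and less even between the replicates of AAV-GFP and of AAV-XBP1S, though not of AAV-ATF6N. Sec24d stood at 31.5 and 57.8 CPM in AAV-GFP, 56.2 and 75.3 CPM in AAV-XBP1S and 80.0 and 77.7 CPM in AAV-ATF6N. Its 2 AAV-GFP libraries differed 1.83-fold, and both AAV-ATF6N libraries lay above all others (log2 fold change 0.82, SE 0.32, edgeR adjusted p = 0.356). This was 0.45 without AAV-GFP replicate 1 and 1.33 without AAV-GFP replicate 2. Sec24b stood at 14.3 and 24.1, 17.6 and 28.5, and 31.8 and 33.8 CPM in AAV-GFP, AAV-XBP1S and AAV-ATF6N, with the AAV-XBP1S and AAV-GFP libraries interleaved. Sec24c was the most abundant of the 4, at 24.5 RPKM in AAV-GFP, and ran from 64.1 to 158 CPM between the AAV-GFP libraries alone. As a share of the summed SEC24 RPKM, Sec24a made up 1.30% to 2.85% and Sec24c 51.2% to 62.6% across the 6 libraries. Both ends of the Sec24a range came from AAV-GFP, with 2.85% for replicate 1 and 1.30% for replicate 2. The AAV-ATF6N shares of Sec24a, 2.67% and 2.35%, thus lay between the controls, as did its AAV-XBP1S shares of 2.14% and 1.46%.

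The 2 SEC23 genes, which encode the GTPase-activating partner of SEC24, had their larger mean in different groups. Sec23b stood at 18.03 and 34.0 CPM in AAV-GFP, 49.5 and 59.3 CPM in AAV-XBP1S and 33.8 and 35.4 CPM in AAV-ATF6N. Both AAV-XBP1S libraries were above the other 4 (log2 fold change over AAV-GFP 1.07, SE 0.32, edgeR adjusted p = 0.294, and 0.0351 without AAV-GFP replicate 2, in a range of 0.0351 to 0.939 over 12 settings). The log2 fold change was 0.68 without AAV-GFP replicate 1 and 1.63 without AAV-GFP replicate 2. Sec23a stood at 22.5 and 83.5 CPM in AAV-GFP, 46.5 and 109.7 CPM in AAV-XBP1S and 120.3 and 106 CPM in AAV-ATF6N. Its AAV-GFP libraries differed 3.72-fold, more than those of any other member, so its log2 fold change of 1.10 in AAV-ATF6N carried an SE of 0.63. The share of Sec23b in the summed SEC23 RPKM was 53.1% and 36.4% in AAV-GFP, 60.01% and 43.2% for the AAV-XBP1S libraries, and 28.4% and 31.9% for those of AAV-ATF6N. The AAV-ATF6N shares were the lowest, while those of AAV-GFP and AAV-XBP1S overlapped.

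Of the outer layer and the scaffold, Sec31a stood at 98.4 and 158 CPM in AAV-GFP, 149 and 195 CPM in AAV-XBP1S and 219 and 214 CPM in AAV-ATF6N. Sec16a, which organises the ER exit sites where COPII assembles, stood at 27.1 and 34.2, 30.1 and 46.4, and 54.0 and 53.7 CPM. In both genes the AAV-ATF6N pair lay above the other 4 libraries, and AAV-XBP1S overlapped AAV-GFP. For AAV-ATF6N the fit gave Sec31a 0.76 (SE 0.28, edgeR adjusted p = 0.344) and Sec16a 0.81 (SE 0.27, edgeR adjusted p = 0.31). Leaving out AAV-GFP replicate 1 gave Sec31a 0.46, and leaving out AAV-GFP replicate 2 gave it 1.15. The gene-length offset gave Sec31a 0.47 and Sec16a 0.45. Sec13, the partner of SEC31, had 0.09 (AAV-XBP1S) and -0.12 (AAV-ATF6N), both with an SE of 0.20. Sar1a, the GTPase that starts the coat, stood at 196 and 206 CPM in AAV-GFP, 205 and 221 CPM in AAV-XBP1S and 258 and 264 CPM in AAV-ATF6N, which is a log2 fold change of 0.38 (SE 0.18, edgeR adjusted p = 0.384) in AAV-ATF6N. Its paralog Sar1b stood at 148 and 119, 131 and 115, and 117 and 117 CPM, with AAV-GFP and AAV-XBP1S interleaved and log2 fold changes of -0.12 (SE 0.20) and -0.19 (SE 0.20). With the gene-length offset Sar1b in AAV-ATF6N had 0.083, and without AAV-GFP replicate 1 it had 0.045 in AAV-XBP1S.

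Among the 9 genes of the COPI coat, its GTPase and its GTPase-activating protein, 8 lay above 0 in each comparison with AAV-GFP (median 0.38 in AAV-XBP1S and 0.45 in AAV-ATF6N). Only Arfgap3 passed, and only in AAV-XBP1S. Arfgap3 encodes a protein that makes ARF1 hydrolyse GTP on COPI vesicles, a step needed to shed the coat, and lies on mm10 chromosome 15, from 83299740 to 83350247. It stood at 8.58 and 10.7 CPM in AAV-GFP, 32.7 and 34.8 CPM in AAV-XBP1S and 12.7 and 13.5 CPM in AAV-ATF6N. Both AAV-XBP1S libraries were more than double any other, and the AAV-ATF6N pair lay a little above AAV-GFP without overlap. In AAV-XBP1S Arfgap3 rose by 1.81 on the log2 scale (SE 0.22, edgeR adjusted p = 0.0371). In AAV-ATF6N it had 0.45 (SE 0.21, edgeR adjusted p = 0.388), which is -1.36 (SE 0.22, edgeR adjusted p = 0.0651) against AAV-XBP1S.

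The AAV-XBP1S call for Arfgap3 held in 7 of 12 alternative settings, with log2 fold changes of 1.65 to 2.01 over all 12. It was lost without either AAV-XBP1S library, without either AAV-ATF6N library, and in the fit of only the 4 libraries compared (edgeR adjusted p = 0.17). The SE was 0.22 with all 6 libraries and 0.30 in that fit, which leaves out the close AAV-ATF6N pair. The call thus draws on libraries outside the comparison. The authors' deposited table gives 1.80 with an adjusted p of 0.000226.

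The coat subunits had smaller values. Copb1 (beta-COP) stood at 41.7 and 54.8 CPM in AAV-GFP, 64.3 and 87.0 CPM in AAV-XBP1S and 67.2 and 71.2 CPM in AAV-ATF6N, so all 4 treated libraries lay above both controls. Copb2 (beta'-COP) did the same, at 114 and 151, 174 and 204, and 184 and 177 CPM. Copb1 had log2 fold changes of 0.65 (AAV-XBP1S) and 0.52 (AAV-ATF6N), each with an SE of 0.24, and Copb2 0.51 and 0.45, each with an SE of 0.22. The 4 edgeR adjusted p-values lay between 0.383 and 0.434. Arf4, an ARF GTPase of the early Golgi, stood at 99.6 and 95.5 CPM in AAV-GFP, 122 and 132 CPM in AAV-XBP1S and 121 and 122 CPM in AAV-ATF6N, again with every treated library above both controls (0.38, SE 0.18, and 0.32, SE 0.18).

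Copa (alpha-COP) was uneven between the replicates of AAV-GFP and AAV-XBP1S, at 117 and 307 CPM in AAV-GFP, 180.1 and 317 CPM in AAV-XBP1S and 371 and 359 CPM in AAV-ATF6N. The AAV-XBP1S libraries thus spanned most of the AAV-GFP range, and the log2 fold change of 0.78 in AAV-ATF6N had an SE of 0.47. It was 0.25 without AAV-GFP replicate 1 and 1.65 without AAV-GFP replicate 2. Cope (epsilon-COP) ran the other way. It was the most abundant of the 38 per length, at 210 RPKM in AAV-GFP, and stood at 255 and 178, 258 and 172, and 151 and 154 CPM. AAV-GFP and AAV-XBP1S overlapped fully, and the AAV-ATF6N pair was lowest (log2 fold change -0.50, SE 0.28, edgeR adjusted p = 0.412, and -0.15 with the gene-length offset). Copg (gamma-COP), Arcn1 (delta-COP) and Copz1 (zeta-COP) had AAV-XBP1S log2 fold changes of 0.38, 0.51 and 0.22. For AAV-ATF6N these were 0.44, 0.61 and 0.02.

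**Figure D2:**
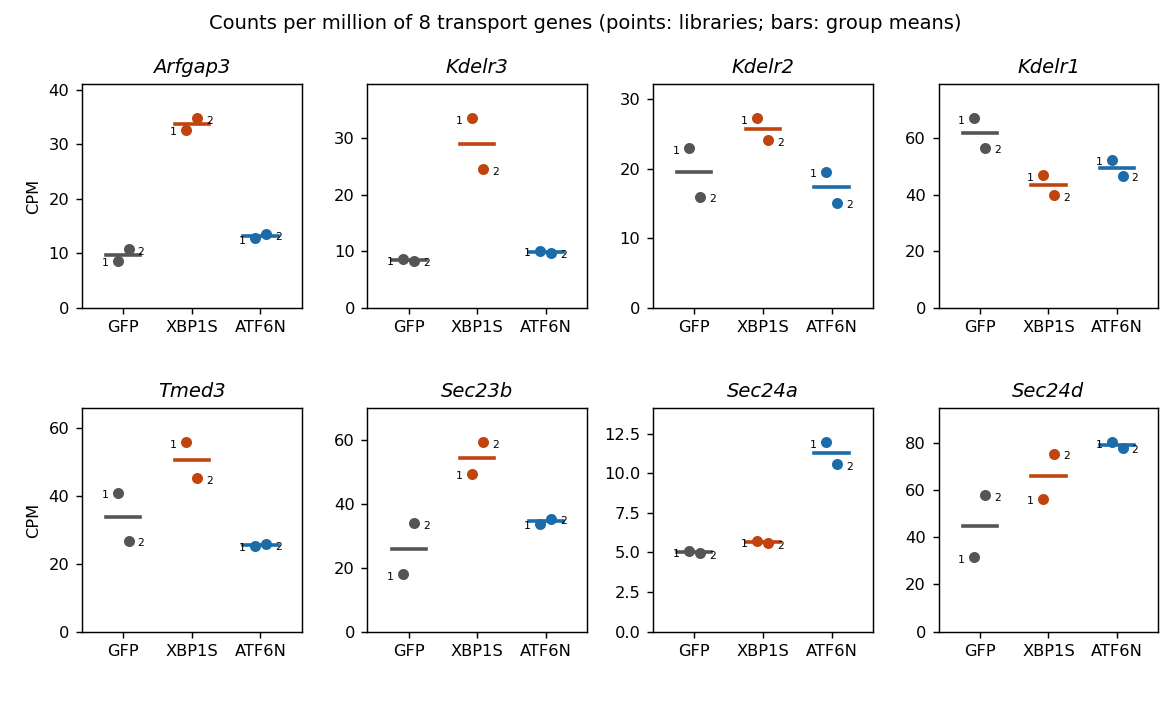
CPM (y axes, from 0) of 8 genes in the 3 groups, with 1 point per library, numbered by replicate, and a bar at the group mean. Arfgap3 and Kdelr3 are high in both AAV-XBP1S libraries only, Sec24a in both AAV-ATF6N libraries only, and the AAV-GFP libraries of Sec23b and Sec24d lie far apart.

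The KDEL receptors bind the KDEL tail of ER residents such as the chaperone BiP in the acidic Golgi and release it in the ER. The 3 paralogs differed in AAV-XBP1S. Kdelr3 (mm10 chromosome 15, from 79516408 to 79527739) stood at 8.57 and 8.32 CPM in AAV-GFP, 33.5 and 24.5 CPM in AAV-XBP1S and 10.04 and 9.72 CPM in AAV-ATF6N. The AAV-XBP1S libraries were more than double all others and differed 1.37-fold between themselves. Over AAV-GFP Kdelr3 had 1.78 on the log2 scale (SE 0.24), which narrowly missed the threshold (edgeR adjusted p = 0.0513), and AAV-ATF6N had -1.55 (SE 0.24) against AAV-XBP1S (edgeR adjusted p = 0.0601). In AAV-ATF6N it was 0.23 (SE 0.23). The authors' deposited table gives 1.77 in AAV-XBP1S with an adjusted p of 0.000636. Kdelr3 passed in AAV-XBP1S in 5 of 12 alternative settings, where its adjusted p ran from 4.82e-08 with DESeq2 to 0.356 without AAV-XBP1S replicate 1, and its log2 fold change from 1.58 to 1.99.

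Kdelr1 pointed down in the same libraries, at 67.1 and 56.7 CPM in AAV-GFP, 47.0 and 39.8 CPM in AAV-XBP1S and 52.4 and 46.6 CPM in AAV-ATF6N. Every treated library lay below both controls, by -0.51 on the log2 scale (SE 0.21, edgeR adjusted p = 0.421) in AAV-XBP1S and -0.32 (SE 0.21, edgeR adjusted p = 0.451) in AAV-ATF6N. Kdelr2 stood at 22.9 and 15.99, 27.3 and 24.1, and 19.5 and 15.1 CPM, with AAV-XBP1S just above the AAV-GFP libraries (0.40, SE 0.26, edgeR adjusted p = 0.604) and AAV-ATF6N overlapping them. Per length, Kdelr1 was the main receptor in every library. Its share of the summed RPKM of the 3 was 70.4% and 71.9% in AAV-GFP, 44.5% and 46.3% for the AAV-XBP1S libraries, and 66.0% and 67.1% for those of AAV-ATF6N. The share of Kdelr3 was 9.70% and 11.4%, 34.2% and 30.7%, and 13.7% and 15.1% in the same order, and the 3 groups did not overlap in either share.

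Promoters are shown because XBP1s and ATF6 are known to bind short motifs near the start sites of their targets. RefSeq windows on GRCm38.p6, from 250 bases before to 50 after a gene's start, were matched for 33 of the 38 genes (36 windows) and searched on both strands. Arcn1, Tmed2, Lman1, Kdelr2 and Golgb1 were not matched and not searched. The complete ER stress element, CCAAT, 9 bases and CCACG, was in 0 of the 33 and in 0.137% of the 27025 gene symbols with a window. The second form, ATTGG, 1 base and CCACG, was in 0 of the 33 and 0.0444% of all symbols. The core of the unfolded protein response element, TGACGTGG, was in 5 of the 33 (Kdelr3, Copb1, Copb2, Sec23a and Sec24d), which is 15.2%, against 0.714% of all symbols. It contains the half-site CCACG, which alone was in 24 of the 33 (72.7%), against 35.5% of all symbols. Counted by window, 13.9% of the 36 member windows held TGACGTGG and 69.4% the half-site, against 0.676% and 32.8% of all 32851 windows. The member windows held a median of 58% G and C against 52.7%. Among the 9285 windows within 5 points of that median, 0.775% held TGACGTGG and 41.5% the half-site.

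The upstream parts of the 3 leading genes follow, 5′ to 3′ on the gene's strand, with TGACGTGG and CCACG matches on either strand in capitals. Arfgap3 is at chr15:83350248-83350497 (minus strand), Kdelr3 at chr15:79516158-79516407 (plus strand) and Sec24a at chr11:51756835-51757084 (minus strand).
Arfgap3: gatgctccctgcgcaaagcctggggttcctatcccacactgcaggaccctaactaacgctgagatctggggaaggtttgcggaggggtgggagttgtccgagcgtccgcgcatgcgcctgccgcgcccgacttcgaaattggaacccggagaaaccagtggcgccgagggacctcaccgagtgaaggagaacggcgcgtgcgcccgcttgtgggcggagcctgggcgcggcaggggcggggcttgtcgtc
Kdelr3: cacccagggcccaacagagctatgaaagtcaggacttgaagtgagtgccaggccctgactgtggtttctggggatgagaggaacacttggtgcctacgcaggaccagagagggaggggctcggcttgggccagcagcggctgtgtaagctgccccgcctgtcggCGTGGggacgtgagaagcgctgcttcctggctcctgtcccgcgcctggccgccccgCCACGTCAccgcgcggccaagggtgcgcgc
Sec24a: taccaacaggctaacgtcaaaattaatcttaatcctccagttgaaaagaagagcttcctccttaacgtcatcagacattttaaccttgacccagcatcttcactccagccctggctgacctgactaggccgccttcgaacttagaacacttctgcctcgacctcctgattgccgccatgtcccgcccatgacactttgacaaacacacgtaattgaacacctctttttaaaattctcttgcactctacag
In Kdelr3 the 8-base core lies 30 to 23 bases before the start, on the other strand, and a separate half-site lies 86 to 82 bases before it. The Arfgap3 and Sec24a windows hold neither motif, although Arfgap3 had the lowest p of the 38 in AAV-XBP1S. The printed part held 46% G and C in Sec24a, against 66.8% in Arfgap3 and 67.2% in Kdelr3. Whether the annotated starts are those used in these cells was not tested.

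The 60 bases that end at the start are shown for the other genes with the core upstream of it, and for Kdelr1, a paralog of Kdelr3 whose window lacks it. Copb1 is at chr7:114254681-114254740 (minus strand), Copb2 at chr9:98563672-98563731 (plus strand, ending on the start base), Sec24d at chr3:123267436-123267495 (plus strand) and Kdelr1 at chr7:45872780-45872839 (plus strand).
Copb1: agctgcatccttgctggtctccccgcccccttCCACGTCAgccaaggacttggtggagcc
Copb2: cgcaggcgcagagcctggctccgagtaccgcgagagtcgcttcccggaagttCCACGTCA
Sec24d: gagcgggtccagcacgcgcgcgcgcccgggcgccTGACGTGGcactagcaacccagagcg
Kdelr1: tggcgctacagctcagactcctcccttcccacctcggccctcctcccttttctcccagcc
The core lies 28 to 21 bases before the start in Copb1 and 26 to 19 before it in Sec24d, and in Sec23a it lies 6 to 13 bases after the start. In these 5 genes the log2 fold changes in AAV-XBP1S were 1.78 for Kdelr3, 0.65 for Copb1, 0.51 for Copb2, 0.56 for Sec23a and 0.56 for Sec24d. In AAV-ATF6N they were 0.23, 0.52, 0.45, 1.10 and 0.82. None of these passed the edgeR test, and a match in the letters does not show binding.

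The p24 proteins ride in both coats and sort lipid-anchored cargo. Of the 4 p24 genes, 3 lay above 0 in AAV-XBP1S (median 0.03) and 1 in AAV-ATF6N (median -0.21). Tmed3 stood at 40.9 and 26.8 CPM in AAV-GFP, 55.8 and 45.2 CPM in AAV-XBP1S and 25.3 and 25.8 CPM in AAV-ATF6N. AAV-XBP1S was highest and AAV-ATF6N lowest, with no overlap between groups. The direct difference was -0.98 (SE 0.26), with an edgeR adjusted p of 0.176, a range of 0.0282 to 1.00 over 12 settings and a pass in 5 of them. Tmed10 stood at 167 and 122, 134 and 115, and 110.0 and 113 CPM, and Tmed2 at 182 and 184, 177 and 205, and 211 and 216 CPM. Tmed9, at 117 RPKM the second most abundant of the 38 in AAV-GFP, had 0.00 (AAV-XBP1S) and -0.06 (AAV-ATF6N), both with an SE of 0.21. Without AAV-GFP replicate 1, Tmed10 went from -0.22 to 0.028 in AAV-XBP1S.

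Other cargo receptors pick soluble or glycosylated proteins in the ER, and none of these 7 genes passed. In AAV-XBP1S 5 lay above 0 (median 0.03) and in AAV-ATF6N 6 did (median 0.09). Lman1 encodes ERGIC-53, the lectin that carries glycoproteins such as coagulation factors with its partner MCFD2. It stood at 84.3 and 122 CPM in AAV-GFP, 114 and 154 CPM in AAV-XBP1S and 137 and 134 CPM in AAV-ATF6N, with AAV-XBP1S overlapping AAV-GFP (0.38, SE 0.26, and 0.40, SE 0.26). Mcfd2 had 0.11 (SE 0.18) and 0.01 (SE 0.18). Surf4, a receptor for soluble cargo, had 0.11 (SE 0.19) and 0.31 (SE 0.19), and the lectin gene Lman2 0.02 (SE 0.31) and 0.31 (SE 0.31). Among the genes of the ERGIC family, which cycle between the ER and the intermediate compartment, Ergic3 stood at 99.3 and 78.7, 82.3 and 59.9, and 63.6 and 64.9 CPM (log2 fold changes of -0.32, SE 0.24, and -0.47, SE 0.24), while Ergic1 had -0.24 and 0.09 and Ergic2 0.03 and 0.01.

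For the tether and SNARE genes, 4 of 4 lay above 0 in AAV-XBP1S (median 0.36) and 1 of 4 in AAV-ATF6N (median -0.09), and 4 of 4 had a negative direct difference (median -0.49). Sec22b, the SNARE of ER-derived vesicles, had 0.34 (SE 0.19) and -0.01 (SE 0.19), with both AAV-XBP1S libraries above both AAV-GFP libraries. Golgb1, the Golgi tether giantin, stood at 65.5 and 25.2 CPM in AAV-GFP, 75.8 and 53.7 CPM in AAV-XBP1S and 37.4 and 43.4 CPM in AAV-ATF6N, with the control pair spanning 2.60-fold. Its AAV-XBP1S value of 0.51 was 1.36 without AAV-GFP replicate 1 and 0.015 without AAV-GFP replicate 2. Bet1 stood at 30.4 and 16.9, 28.7 and 23.6, and 16.5 and 17.3 CPM, and Gosr2, which pairs with it, at 70.1 and 112, 106 and 131, and 104 and 101 CPM. The AAV-XBP1S and AAV-GFP libraries overlapped in these 3 genes. Bet1 had 0.14 (SE 0.31) in AAV-XBP1S, which was -0.19 without AAV-GFP replicate 2, and Gosr2 had 0.17 (SE 0.27) in AAV-ATF6N, which was -0.13 without AAV-GFP replicate 1.

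**Figure D3:**
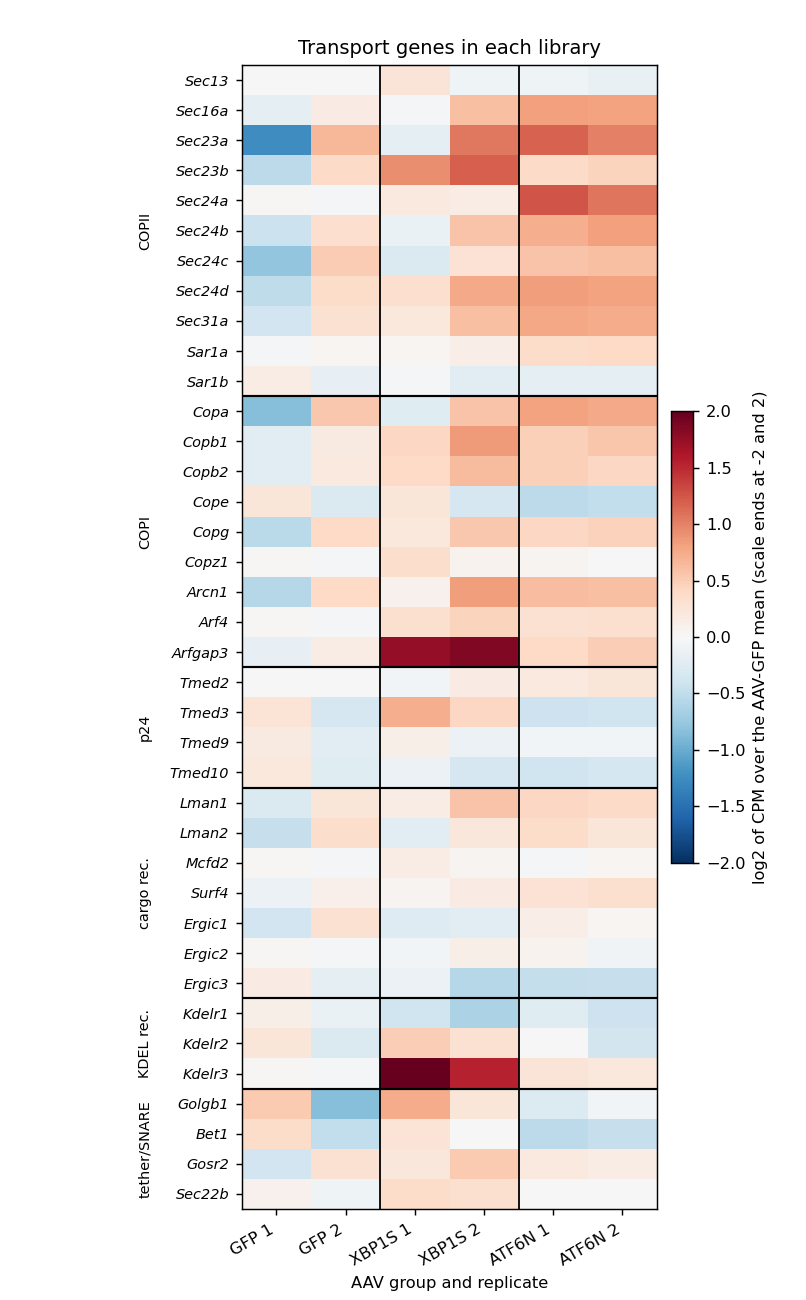
Each of the 38 genes (rows, by role) in each of the 6 libraries (columns), coloured by the log2 of its CPM over its AAV-GFP mean. The dark red cells are Arfgap3 and Kdelr3 in both AAV-XBP1S libraries, and AAV-GFP replicate 1 is bluest in Sec23a, Copa and Sec24c.

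Within AAV-GFP and within AAV-XBP1S, the 2 libraries differed in these genes by gene length. In AAV-GFP, 15 of the 38 differed over 1.5-fold between the replicates, against 48.3% of the 13820 genes above 0 in every library. In AAV-XBP1S 6 did (28.2%) and in AAV-ATF6N 0 (10.8%). Across the 38 genes, which share the same 2 libraries, the log2 ratio of replicate 2 to replicate 1 rose with log2 gene length in AAV-GFP (Spearman's rho 0.59, Pearson's r 0.40) and AAV-XBP1S (rho 0.71, r 0.59) and not in AAV-ATF6N (rho -0.01, r 0.09). Over those 13820 genes rho was 0.44, 0.48 and -0.17. AAV-GFP replicate 1 was the lowest of the 6 libraries in 19 of the 38 genes, against 30.6% of all genes.

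The fold changes carried the same order. Split at the median length of 2889 bases, the 19 longer members had a median log2 fold change of 0.52 in AAV-ATF6N with 17 above 0, and the 19 shorter ones -0.01 with 9 above 0. All genes longer than this had 0.23 and all others -0.25. In AAV-XBP1S the medians were 0.38 and 0.11, against 0.09 and -0.12 over all genes. With the gene-length offset the medians of longer and shorter members were 0.32 and 0.08 in AAV-ATF6N and 0.21 and 0.06 in AAV-XBP1S. Without AAV-GFP replicate 2, which leaves the replicate low in long genes as the only control and assumes that it varies like the other groups, 9 members passed in AAV-ATF6N among 3055 genes, or 20% of all genes tested. They were Sec23a, Sec23b, Sec24a, Sec24c, Sec24d, Sec31a, Copa and Copg on the higher side and Bet1 on the lower side. Without AAV-GFP replicate 1, 0 members passed. The part of gene length in these differences was not tested further.

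**Figure D4:**
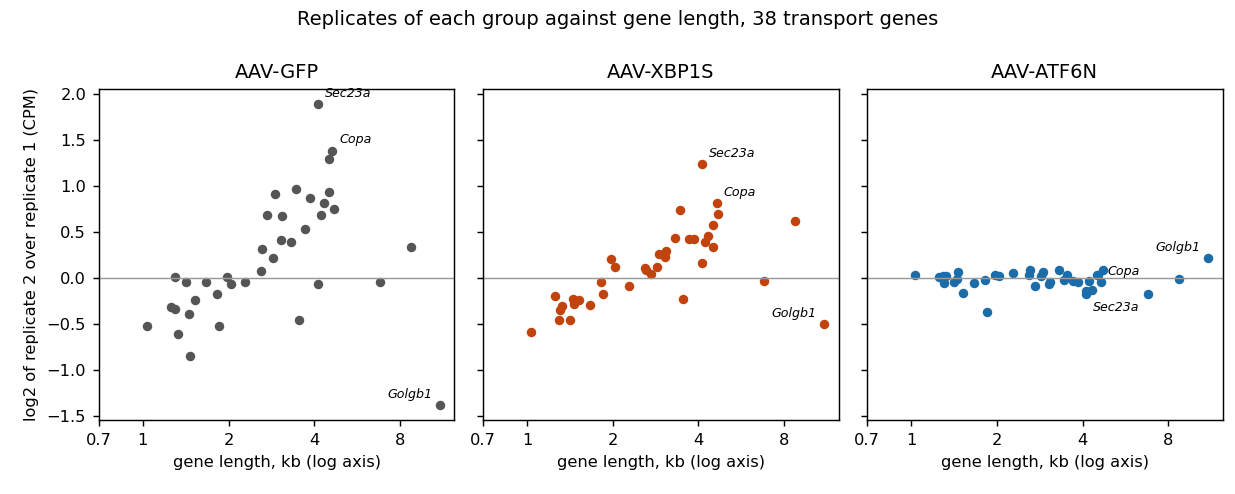
Log2 ratio of replicate 2 over replicate 1 (y axis, CPM) against gene length (x axis, log scale, kilobases) for the 38 genes, 1 panel per group. The points climb with length in AAV-GFP and AAV-XBP1S, with Sec23a and Copa at the top and the longest gene, Golgb1, below the trend, and lie near 0 in AAV-ATF6N.

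Another 56 genes of the early secretory pathway, among them TRAPP tethers, Golgi matrix proteins, further SNAREs and ARF regulators, were listed for comparison. Of these 55 were tested, and 0 passed the edgeR test in any comparison. Their median log2 fold change was -0.08 in AAV-XBP1S, with 26 above 0, and -0.05 in AAV-ATF6N, with 23 above 0. The smallest p-values in AAV-XBP1S belonged to Trappc10 (-0.65, SE 0.22), the p24 gene Tmed1 (-0.69, SE 0.24), Trappc5 (-0.45, SE 0.21) and the transcription factor gene Creb3 (0.51, SE 0.24). In AAV-ATF6N they belonged to Creb3l2 (1.54, SE 0.44), a transcription factor known to activate SEC23A, the tether Uso1 (0.82, SE 0.28), the ARF exchange factor Gbf1 (0.71, SE 0.24) and the ER exit site gene Tfg (0.49, SE 0.18). Creb3l2 stood at 6.94 and 13.4 CPM in AAV-GFP, 10.4 and 20.8 CPM in AAV-XBP1S and 33.9 and 25.2 CPM in AAV-ATF6N, with an edgeR adjusted p of 0.265. Both AAV-ATF6N libraries lay above the other 4.

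Markers of other cell types differed between the same libraries. Secretory cells such as fibroblasts also express these transport genes, and in bulk libraries fewer cells of a type and less RNA per cell cannot be told apart. The 12 fibroblast and matrix markers summed to 998 and 1236 CPM in AAV-GFP, 1698 and 1832 CPM in AAV-XBP1S and 1477 and 1424 CPM in AAV-ATF6N, with 11 of 12 above 0 in AAV-XBP1S and 9 of 12 in AAV-ATF6N. The 10 endothelial markers summed to 1314 and 1137, 1548 and 1730.1, and 753 and 701 CPM, with 10 of 10 above 0 in AAV-XBP1S, 1 of 10 in AAV-ATF6N and 10 of 10 below 0 in the direct comparison. Smooth muscle and pericyte markers summed to 985 and 1097, 1130 and 1215, and 1340 and 1288 CPM in the same order. The largest part of each sum was Acta2, at 664 and 529, 661 and 533, and 810 and 818 CPM. Of the 10 markers, 10 lay above 0 in AAV-XBP1S and 5 in AAV-ATF6N, and 8 lay below 0 in the direct comparison. Their log2 fold changes in AAV-ATF6N ran from -1.10 for Kcnj8 to 0.92 for Cnn1. Leukocyte markers summed to 43.0 and 43.1, 65.6 and 54.7, and 57.2 and 57.8 CPM. Of those, 8 of 10 lay above 0 in AAV-XBP1S and 7 of 10 in AAV-ATF6N. The 10 cell cycle genes summed to 3.64 and 4.11 CPM in AAV-GFP, 32.9 and 34.9 CPM in AAV-XBP1S and 24.8 and 25.8 CPM in AAV-ATF6N. All 10 lay above 0 in AAV-XBP1S (median log2 fold change 3.09) and in AAV-ATF6N (median 2.46). By the edgeR test 3 of them rose in AAV-XBP1S and 3 in AAV-ATF6N, where 0.178% and 0.35% of all genes rose. Of the 6 erythroid markers, Hba-a1, Hba-a2 and Hbb-b1 were listed at 0 in every library. The listed spans of Hba-a1 (chr11:32283672-32297303) and Hba-a2 (chr11:32283675-32297310) overlap almost fully. Whether these counts mean that globin RNA was absent was not tested. Alas2, the heme synthesis enzyme of red cell precursors, stood at 12.2 and 12.2 CPM in AAV-GFP, 5.81 and 6.62 CPM in AAV-XBP1S and 4.04 and 3.22 CPM in AAV-ATF6N. It fell by 1.75 on the log2 scale in AAV-ATF6N (SE 0.25, edgeR adjusted p = 0.047). No marker of the other lists was at 0 in all 6 libraries. The part of these cells in the values of Arfgap3, Kdelr3, Tmed3 and the COPII genes was not tested.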

How the data were processed

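The authors deposited a table of whole-number read counts per gene. The submitters' processing notes name STAR, featureCounts and mm10, while the sources used here give no version, annotation or strand setting. The labels' protocols name a PureLink micro kit, SMART-Seq v4 (SMART-Seq2 in a description) and Nextera XT, kits that do not mark strand. A further deposited table for each comparison with AAV-GFP holds, per the file headers, a mean normalized signal, log2 fold changes with standard errors, a Wald score and raw and adjusted p-values. DESeq2 and DESeq are also among the tools in those notes. Fold changes, standard errors and adjusted p-values of members were copied from them.

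From the counts, edgeR 4.0.16 (R 4.3.3; filterByExpr with a count minimum of 10, TMM, glmQLFit on all 6 libraries with a term for the group alone, 3 residual and 3.73 prior degrees of freedom) gave log2 fold changes and Benjamini-Hochberg adjusted p-values over 14587 genes, with a threshold of 0.05. The SE is the log2 fold change divided by the square root of F. CPM use TMM-adjusted library sizes. RPKM were computed here from CPM and the deposited gene length. No exact test of 2 against 2 libraries can go below 33.3%, so none was run. The method was tested on simulated data in which 200 genes were changed and every gene and group had the same dispersion. The unequal spread of these groups was not simulated. Alternatives were DESeq2 1.42.0, RLE scaling, no filter, only the groups compared, a replicate block, a loess offset on gene length (span 0.3) and leaving out each library. Counting members above 0 under each was added after seeing the data.

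Members and lists were chosen with earlier results of these data known. Genes given by library were those past the threshold, the 8 members of smallest p in each comparison with AAV-GFP and the 6 in the direct one, the highest and lowest of each role and the 3 KDEL receptors; Sec23a, Sec24c and Creb3l2 were given in addition or in more detail after their values were seen. A planned comparison of protein sequences was not run.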

Additional observations from a re-analysis of the deposited data

How the results depend on the processing

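In AAV-XBP1S the count of members past the threshold was 1 (0.315% of all genes passed in either direction). It was 2, Arfgap3 and Kdelr3, without a filter on low counts (1.26% of all genes), with DESeq2 (3.56%), with a replicate block (1.13%) and with the gene-length offset (2.89%). It was 0 in the fit of only the 2 groups compared (0.0909%) and 0 to 3 when 1 library was left out (0.0131% to 2.11%). In AAV-ATF6N it was 0 (0.514%), 1 with DESeq2 (4.16%), and 0 to 9 when 1 library was left out (0.0395% to 20%). In the direct comparison it was 0 (0.226%), 2 without the filter (2.49%) and with the replicate block (2.44%), 4 with DESeq2 (5.75%) and with only the 2 groups compared (4.62%), 3 with the gene-length offset (4.19%), and 0 to 4 when 1 library was left out (0.00657% to 4.75%). Between settings the medians of the 38 genes shifted by less than the spread between libraries. The direct median of -0.06 was 0.03 with the gene-length offset and 0.05 without AAV-XBP1S replicate 2. That offset moved the median of all genes in AAV-XBP1S from -0.01 to -0.13. The cause of these shifts was not tested.

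Of 480 recomputed log2 fold changes of named genes, 432 kept direction and side of the threshold, 35 gained a call, 5 lost one (all Arfgap3 in AAV-XBP1S) and 8 changed sign, none of them a call. With the gene-length offset, Cope in AAV-XBP1S went from -0.013 to 0.057 and Sar1b in AAV-ATF6N from -0.19 to 0.083. When 1 library was left out, values in AAV-XBP1S ran from -0.29 to 0.27 for Cope (the highest without AAV-GFP replicate 1, and 0.26 without AAV-XBP1S replicate 2), from -0.23 to 0.045 for Sar1b and from -0.40 to 0.028 for Tmed10 (both highest without AAV-GFP replicate 1), and from -0.19 without AAV-GFP replicate 2 to 0.63 for Bet1. In AAV-ATF6N, Gosr2 ran from -0.13 without AAV-GFP replicate 1 to 0.56.

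The replicate numbers do not mark a shared animal or batch in the labels. Deviations of same-numbered libraries correlated at 0.72 between AAV-GFP and AAV-XBP1S, -0.14 between AAV-GFP and AAV-ATF6N and -0.17 between AAV-XBP1S and AAV-ATF6N. With the replicate block, calls over all genes went from 46 to 165, 75 to 237 and 33 to 356.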
